A study of Mus musculus with 12 samples.

Results

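Transcripts of 9 genes of Slit-Robo signalling were followed in oligodendrocyte precursor cells (OPCs) and neurons from the mouse cortex, in controls (ctl) and in double knockouts (dKO). The genes are the ligands Slit1, Slit2 and Slit3, the receptors Robo1, Robo2 and Robo3, and the srGAP proteins Srgap1, Srgap2 and Srgap3. All 9 were found by symbol in the OPC table, among 30165 genes, and in the neuron table, among 17918 genes. Slit1 was chosen by its change between dKO and ctl in these same libraries, since the study lists it among the changed genes of both cell types, so its values are a description and carry no test. The other 8 genes were included as relatives or partners of Slit1.

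The 12 RNA-seq libraries came from the cortex, 3 per group, and each pooled the cells of 2 mice of one genotype. In dKO mice, labelled dko, the NG2-CreERT2 driver and tamoxifen given in early postnatal life deleted floxed exons of Cacna1c and Cacna1d, the genes of the L-type calcium channels Cav1.2 and Cav1.3. The ctl mice are labelled WT, and whether they carried Cre or floxed alleles is not given, nor is the age at which the cells for sequencing were taken. OPCs were pulled out with a bead mixture that binds CD140, NG2 and O4. Neurons were what remained once cells bearing O4, CD11b, CD31 or ACSA-2 had been removed. The driver acts in NG2-expressing cells, so neurons are not the cells in which the deletion was induced.

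Slits are large secreted glycoproteins, and Robos are their transmembrane receptors of the immunoglobulin superfamily. Binding of a Slit to a Robo repels growing axons and migrating cells, at the midline of the nervous system and in the developing cortex. Inside the cell, srGAP proteins bind the Robo tail and bend membranes with their F-BAR domain, which links the receptor to the actin cytoskeleton. Robo3 differs from the other receptors in that the mammalian protein does not bind Slits with high affinity.

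The sequences before the transcription start of Slit2 and Robo1 are shown because these were the members, besides Slit1, whose normalized counts did not overlap between the groups in neurons, for Slit2 by a narrow margin. Each line gives the 250 bases before a start site in the RefSeq table of GRCm38.p6, 5′ to 3′ on the plus strand, which both genes use. The Slit2 stretch is chr5:47982905-47983154 and the Robo1 stretch is chr16:72662899-72663148. Capitals mark the GC box GGGCGG, searched on both strands.
Slit2: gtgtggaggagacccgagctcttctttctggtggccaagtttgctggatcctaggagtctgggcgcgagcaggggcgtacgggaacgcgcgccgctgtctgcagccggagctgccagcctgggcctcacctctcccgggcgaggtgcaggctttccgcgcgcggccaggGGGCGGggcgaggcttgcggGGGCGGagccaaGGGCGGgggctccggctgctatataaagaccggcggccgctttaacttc
Robo1: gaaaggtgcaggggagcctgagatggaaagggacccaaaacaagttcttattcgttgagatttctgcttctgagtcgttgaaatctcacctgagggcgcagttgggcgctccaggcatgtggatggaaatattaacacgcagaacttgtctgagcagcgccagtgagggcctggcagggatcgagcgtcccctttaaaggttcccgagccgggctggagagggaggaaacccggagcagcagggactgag
The Slit2 stretch had 69.6% G and C and 3 GC boxes, and the Robo1 stretch had 56.0% and 0, against a median of 52.4% over 32851 stretches of the same length. The GC box was found in 32.7% of those stretches. The letters TATAAA, searched in the same way, were found 1 time before Slit2 and 0 times before Robo1, and in 12.4% of all stretches. The Robo1 start is that of transcript NM_019413, and the Slit2 start lies 17 bases from that of NM_178804, both of which carried most of their gene's counts in neurons. Of the 9 genes, 8 had a promoter in the table, Slit1 being the other.

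In the positions as deposited for OPCs, whose build is given as mm39 in the labels and GRCm38 in the methods, Slit1 lies on chromosome 19 from 41588696 to 41732104, Slit2 on chromosome 5 from 48140480 to 48465075, and Slit3 on chromosome 11 from 35012051 to 35599334. Robo1 and Robo2 are neighbours in one region of chromosome 16, from 72105194 to 72842983 and from 73688727 to 74208713. Robo3 is on chromosome 9 from 37326965 to 37344542. Srgap1 is on chromosome 10 from 121616896 to 121883220 and Srgap2 on chromosome 1 from 131212989 to 131455090. Srgap3, on chromosome 6 from 112694932 to 112924227, is 5.64 Mb from the targeted Cacna1c and is the one member on a chromosome with a targeted gene. These positions cannot be set beside the printed stretches: the GRCm38.p6 stretch of Slit2 ends at 47983154, far before the deposited start of the gene, and that of Srgap2 begins at 131527362, beyond its deposited end, so the deposited positions are not those of GRCm38.p6.

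Total counts were 14935963 to 19812274 per OPC library and 15052892 to 16344601 per neuron library. Cacna1c had 373, 411 and 439 normalized counts in ctl OPCs and 252, 337 and 312 in dKO OPCs. Its log2 fold change was -0.44 ± 0.15 (SE), and its adjusted p was 0.349 (edgeR's quasi-likelihood test). For Cacna1d the OPC values were 251, 191 and 255 in ctl and 92.8, 153 and 232 in dKO, with an adjusted p of 0.531. In neurons Cacna1c had 93.4, 111 and 62.1 normalized counts in ctl and 165, 139 and 57.3 in dKO, and Cacna1d had 30.5, 10.7 and 20.4 in ctl and 54.9, 25.6 and 26.6 in dKO, with adjusted p-values of 0.779 and 0.710. These are counts over the whole gene, which also hold reads outside the floxed exons. The sorts were not pure by marker. Summed markers of oligodendrocytes reached 50255 to 86799 CPM in OPC libraries, where the 12 OPC markers reached 1661 to 3292, and endothelial markers reached 7941 to 18443 CPM in neuron libraries, where the 12 general neuron markers, 11 of them found in the table, reached 718 to 1619. Choroid plexus and ependymal markers reached 10952 to 25084 CPM in ctl OPC libraries and 17428 to 18196 in dKO OPC libraries. In such bulk libraries, fewer cells of a type and less RNA per cell cannot be told apart.

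Levels are given per length, as TPM: the read count divided by length and scaled to one total per library. Genes of one library can then be set side by side. In OPCs the length was the one deposited for the whole gene, such as 25433 bases for Slit2 and 9132 for Srgap1. Places there depend on it: Slit2 had a ctl mean of 861 normalized counts, above the 749 of Srgap1, but fewer TPM. In ctl OPCs the srGAP genes led, with Srgap3 at 44.1 ± 2.89 TPM (SD, n = 3), Srgap2 at 29.1 ± 2.65 and Srgap1 at 17.1 ± 2.08. The ranges of these neighbours over the libraries did not overlap. Slit2 followed at 7.04 ± 3.20 TPM, Slit3 at 4.67 ± 0.641 and Robo1 at 3.62 ± 0.655, neighbours whose ranges overlapped. Robo2, at 0.868 ± 0.0868 TPM, overlapped with Slit1, at 0.740 ± 0.194. Robo3 was lowest, at 0.137 ± 0.132 TPM.

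In ctl neurons Srgap2 led with 37.4 ± 4.34 TPM, followed without overlap by Robo2 at 10.1 ± 4.36. Srgap3 (2.65 ± 0.973 TPM), Srgap1 (2.58 ± 0.801), Slit1 (2.54 ± 0.869) and Slit2 (2.12 ± 1.10) could not be ordered, since the range of each overlapped that of the next. Robo1 at 0.800 ± 0.0557 TPM and Slit3 at 0.530 ± 0.348 overlapped too, and so did Slit3 and Robo3, the latter at 0.117 ± 0.0351. Robo2 thus stood in second place in neurons and in seventh place in OPCs, while Srgap3 led in OPCs. The tables of the cell types were made differently, so these places are set side by side and the difference between cell types was not tested.

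**Figure D1:**
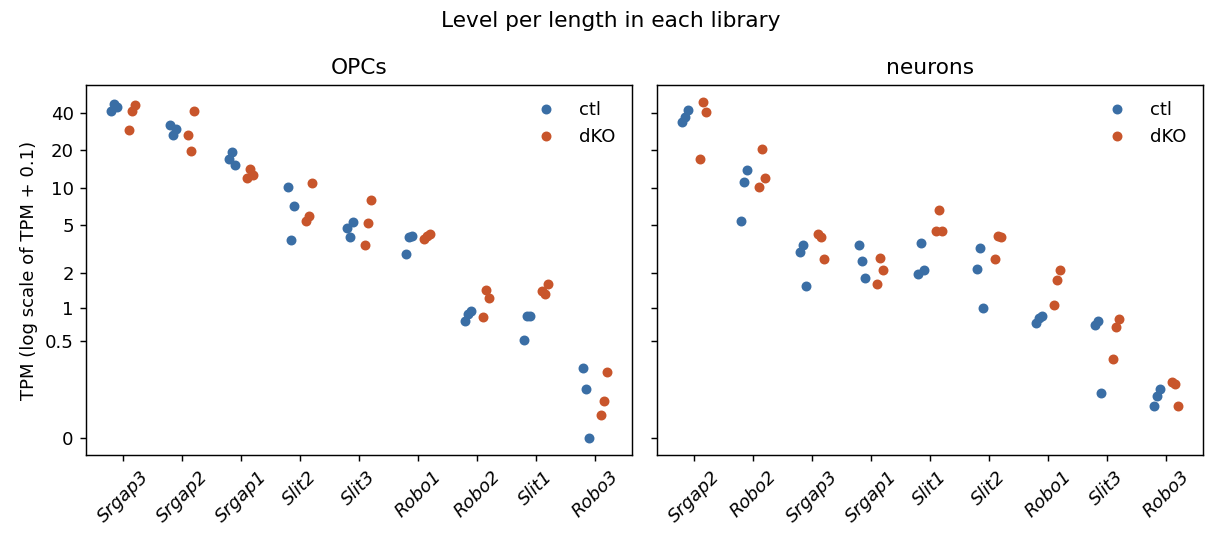
Level per length (TPM, on a log scale of TPM + 0.1) of the 9 genes in each library of OPCs and neurons, ordered by the ctl mean, with one point per library. The srGAP genes lead in OPCs, and Srgap2 and Robo2 lead in neurons. In ctl neurons the ranges of Srgap3, Srgap1, Slit1 and Slit2 overlap, while in dKO neurons Slit1 lies above Srgap3, Srgap1 and Slit2.

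Slit1 is a ligand made by neurons in the developing forebrain. It had the largest log2 fold change of the members in OPCs, and in neurons in the fit of all 6 libraries. Since it was chosen by this change, that place is no finding. In neurons that of Robo1 was larger without ctl replicate 3 (1.14 against 1.07) and without dKO replicate 1 (1.16 against 1.01). With curated transcripts alone those of Robo1 (1.07) and Slit2 (0.72) were larger than that of Slit1 (0.61). In ctl OPCs Slit1 had 14.9, 23.8 and 24.0 normalized counts. The dKO OPC libraries had 44.0, 41.7 and 43.9. The groups did not overlap, and the values within dKO were closer together than those within ctl. The means were 20.9 ± 5.23 and 43.2 ± 1.26 (SD, n = 3), a log2 fold change of 1.05 ± 0.33 (SE). These values rest on 17 to 23 raw counts per ctl library and 41 to 46 per dKO library.

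In neurons, Slit1 had 124, 179 and 123 normalized counts in ctl libraries and 378, 331 and 243 in dKO libraries. Again every dKO library lay above every ctl library, and the means were 142 ± 32.0 and 317 ± 68.8, a log2 fold change of 1.16 ± 0.26 (SE). The value depended on which transcripts were summed. With curated transcripts alone (identifiers starting NM_), it was 0.61 ± 1.08. Predicted transcripts (XM_) held most of the counts of this gene, and their part in that difference was not tested.

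Slit2, the best studied repellent of the family, had in OPCs 1261, 454 and 867 normalized counts in ctl and 724, 791 and 1281 in dKO, so both groups covered much the same range. Its log2 fold change of 0.11 ± 0.35 (SE) had an adjusted p of 0.929. It was -0.19 when ctl replicate 2 was left out, -0.20 when dKO replicate 3 was and 0.49 when ctl replicate 1 was. With the mean of the microglia markers, described with the other cell markers, as a covariate it was -0.30 ± 0.51. In OPCs that covariate cannot be told apart from genotype, since the summed markers did not overlap between the groups. The neuron libraries had 191, 292 and 101 normalized counts in ctl and 307, 352 and 343 in dKO. The dKO libraries were all higher and close together, but the margin between dKO replicate 1 and ctl replicate 2 was narrow, and per length these overlapped, at 2.64 and 3.20 TPM. The log2 fold change was 0.78 ± 0.34, with an adjusted p of 0.554 over all genes tested. Without ctl replicate 3, the lowest ctl library, it was 0.47 ± 0.25, and without ctl replicate 2, the highest, it was 1.19 ± 0.32.

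Slit3, the third ligand, had 140, 114 and 153 normalized counts in ctl OPCs and 109, 168 and 220 in dKO OPCs. The log2 fold change of 0.29 ± 0.27 (SE) had an adjusted p of 0.712, and leaving out dKO replicate 3 gave 0.02, leaving out dKO replicate 1 gave 0.51, and adding the mean of the microglia markers (described with the other cell markers) as a covariate gave 0.14 ± 0.40. In neurons its values were low, 30.5, 34.0 and 6.43 in ctl and 18.6, 28.4 and 33.8 in dKO. The groups overlapped in both cell types. The neuron log2 fold change of 0.18 ± 0.66 (SE) had an adjusted p of 0.954 and turned to -0.26 without ctl replicate 3 and to -0.012 without dKO replicate 3.

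Robo1, a receptor for Slits on axons and migrating cells, was the member with the smallest p in neurons among those tested. It had 50.8, 55.4 and 67.5 normalized counts in ctl neurons and 93.1, 118 and 141 in dKO neurons. The groups did not overlap, and the log2 fold change was 1.02 ± 0.32 (SE), with an adjusted p of 0.521 over all genes tested. It was 0.87 ± 0.37 without dKO replicate 3, the highest library, and 1.16 ± 0.32 without dKO replicate 1. In OPCs Robo1 had 230, 308 and 318 normalized counts in ctl and 335, 354 and 322 in dKO. The dKO libraries were again all higher, by a narrow margin over ctl replicate 3, although per length the groups overlapped (up to 4.03 TPM in ctl and from 3.85 in dKO), and the log2 fold change was 0.24 ± 0.16, with an adjusted p of 0.580. It was 0.11 without ctl replicate 1, the lowest library.

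Robo2, which guides axons together with Robo1, had 63.9, 71.5 and 76.3 normalized counts in ctl OPCs and 74.3, 131 and 96.3 in dKO OPCs. Only dKO replicate 1 lay within the ctl range, and the log2 fold change was 0.51 ± 0.26 (SE), with an adjusted p of 0.499. It was 0.27 without dKO replicate 2, the highest library, and 0.69 without dKO replicate 1. With the microglia markers as a covariate it was 0.88 ± 0.35. The neuron values were 417, 898 and 1251 in ctl and 1060, 1566 and 919 in dKO. They overlapped, and the log2 fold change was 0.47 ± 0.37, with an adjusted p of 0.727. It was 0.14 without ctl replicate 1, 0.84 without ctl replicate 3 and 0.21 without dKO replicate 2.

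Robo3 was below the minimum of 10 mean normalized counts in both cell types and was left out of the main fits. It had 10, 4 and 0 raw counts in ctl OPCs and 2, 4 and 7 in dKO OPCs, and 2, 4 and 4 in ctl neurons and 8, 8 and 4 in dKO neurons. With no filter on low counts, the log2 fold change was -0.05 ± 1.03 (SE) in OPCs and 0.91 ± 0.97 in neurons, with adjusted p-values of 1.00 and 0.795 (edgeR). No difference was found at these low counts, and the size of difference that could be detected was not tested.

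Srgap1, an srGAP that acts downstream of Robo1, was the member with the smallest p in OPCs among those tested. It had 761, 829 and 657 normalized counts in ctl and 573, 691 and 530 in dKO. The dKO values were lower on the whole, but dKO replicate 2 lay above ctl replicate 3. Per length the groups did not overlap, at 15.1 to 19.2 TPM in ctl and 11.9 to 14.2 in dKO. The share of all genes apart per length was not counted. The log2 fold change was -0.32 ± 0.14 (SE), with an adjusted p of 0.433, and 0.450 with DESeq2. Leaving out one library at a time gave -0.44 ± 0.14 without dKO replicate 2 (adjusted p = 0.222) and -0.25 ± 0.16 without ctl replicate 2 (adjusted p = 0.824) as the ends of the range. With the mean of the microglia markers as a covariate, which cannot be told apart from genotype in OPCs, the log2 fold change was -0.02 ± 0.18. Neuron libraries had 235, 182 and 141 normalized counts in ctl and 147, 179 and 142 in dKO, which overlapped. The log2 fold change there was -0.25 ± 0.26, with an adjusted p of 0.792, and it was -0.05 without ctl replicate 1 and -0.42 without ctl replicate 3.

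Srgap2, an srGAP known for its part in the branching of neuronal processes and the maturation of spines, had 1938, 1565 and 1757 normalized counts in ctl OPCs and 1754, 1321 and 2401 in dKO OPCs. The dKO libraries lay on both sides of the ctl range, and the log2 fold change of 0.06 ± 0.20 (SE) had an adjusted p of 0.939. It turned to -0.20 without dKO replicate 3 and to -0.019 without ctl replicate 2, and with the microglia covariate it was -0.54 ± 0.20. In neurons it had 2317, 2555 and 2762 in ctl and 1586, 2850 and 2410 in dKO, a log2 fold change of -0.16 ± 0.21 with an adjusted p of 0.848, which turned to 0.048 without dKO replicate 1.

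Srgap3, also called WRP, an srGAP that binds the WAVE complex, had 1966, 2170 and 2103 normalized counts in ctl OPCs and 1507, 2179 and 2082 in dKO OPCs. Apart from dKO replicate 1, all libraries were within a narrow band, and the log2 fold change of -0.11 ± 0.15 (SE) had an adjusted p of 0.810. It turned to 0.036 without dKO replicate 1 and to 0.032 with the microglia covariate. In neurons the values were 237, 276 and 139 in ctl and 438, 304 and 202 in dKO, which overlapped, with a log2 fold change of 0.53 ± 0.34 and an adjusted p of 0.680. It was 0.22 without dKO replicate 1, 0.29 without ctl replicate 3 and 0.77 without dKO replicate 3.

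**Figure D2:**
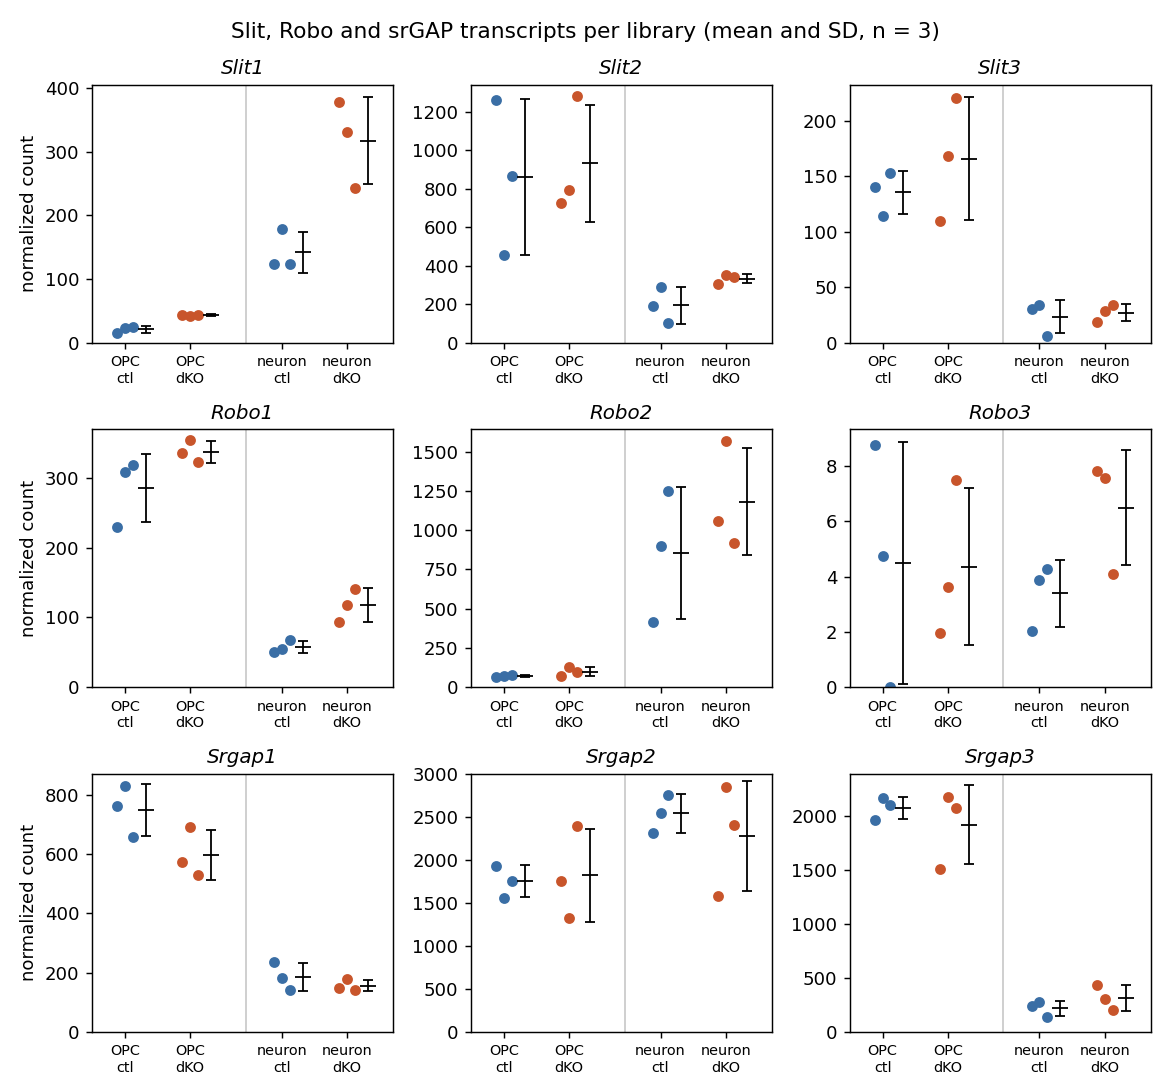
Normalized counts (TMM-scaled) of each gene in the 3 ctl and 3 dKO libraries of OPCs and of neurons. Points are libraries in the order of their replicate number, and the bar beside them gives the mean and SD (n = 3), each panel with its own axis from 0. Slit1 and Robo1 are apart in both cell types, Slit2 in neurons, and Robo3 stays under 10 normalized counts in all libraries.

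Of the 8 members other than Slit1, 7 were tested in each cell type. In OPCs, 0 of 7 had an adjusted p under 0.05, where 0.00576% of 17364 genes did by edgeR's quasi-likelihood test, and 1 of 7, Srgap1, had an unadjusted p under 0.05, where 11.5% of all genes did (6.27% higher and 5.27% lower in dKO). The groups did not overlap for 1 of 7, Robo1, against 17.0% of all genes tested (7.41% higher and 9.55% lower in dKO). DESeq2 gave 0 of 7 by either rule on p, where 293 of 17364 genes had an adjusted p under 0.05 and 11.9% an unadjusted one. Over these 7 genes the log2 fold change had a median of 0.11, beside 0.01 over all genes tested, with 5 above 0 and 2 below. These shares are near the background.

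In neurons, 0 of 7 had an adjusted p under 0.05, beside 0.0% of 14352 genes. At an unadjusted p under 0.05 there was 1 of 7, Robo1, beside 9.0% of all genes (4.96% higher and 4.04% lower in dKO), and DESeq2 gave 2, Robo1 and Slit2, beside 10.7% of all genes, with 0 of 7 past the adjusted threshold, beside 88 of 14352 genes. The groups did not overlap for 2 of 7, Robo1 and Slit2, both higher in dKO, beside 15.3% of all genes (7.5% higher and 7.82% lower). Over these 7 genes the log2 fold change had a median of 0.47, beside 0.01 over all genes, again with 5 above 0 and 2 below. With so few genes, these counts do not set the members apart from the background.

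**Figure D3:**
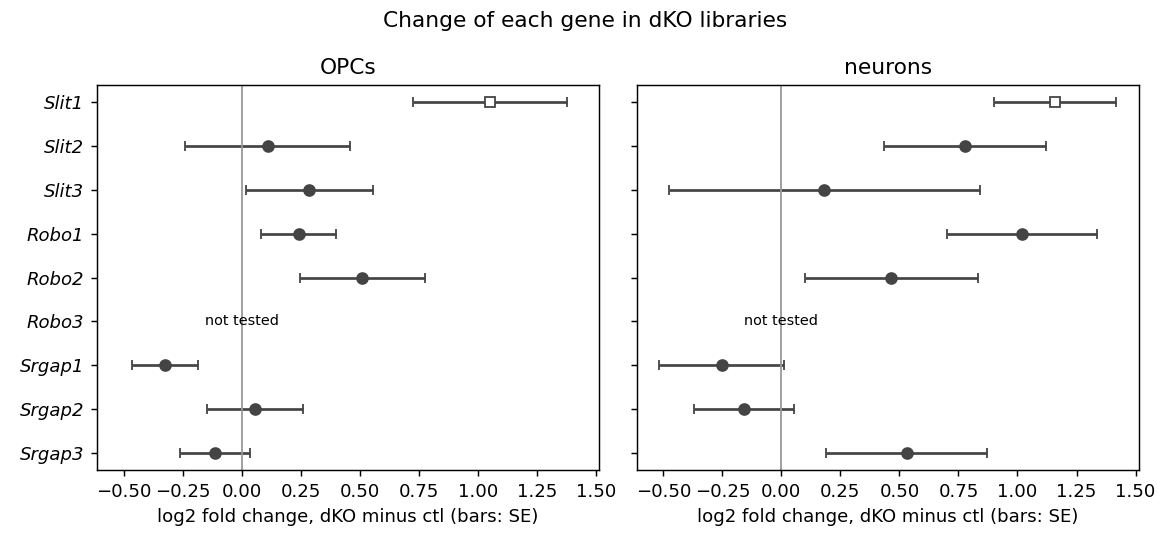
Log2 fold change (dKO minus ctl) of each gene in OPCs and neurons, with bars for the standard error. The open square is Slit1, shown with no test, and Robo3 was below the minimum count. Slit1 is above 1 in both cell types, Robo1 reaches 1.02 in neurons, and Srgap1 and Srgap2 in neurons and Srgap1 and Srgap3 in OPCs are below 0.

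Markers of other cells moved with the groups. In OPC libraries all 12 microglia markers were higher in dKO at an unadjusted p under 0.05 (6.27% of all genes). Their summed levels were 295 to 358 CPM in ctl and 388 to 1191 in dKO. Oligodendrocyte markers were lower in dKO for 10 of 12, 4 of them at an unadjusted p under 0.05 (5.27% of all genes), with -0.43 as the median of their log2 fold changes, the direction of Srgap1. Their summed levels overlapped, at 68162 to 80561 CPM in ctl and 50255 to 86799 in dKO. Of the 12 astrocyte markers, 10 were higher by the same rule (6.27% of all genes), with 1353 to 2278 CPM in ctl and 2225 to 6129 in dKO. The 12 markers of GABAergic neurons summed to 24.5 to 36.2 CPM in ctl OPCs and 36.9 to 45.6 in dKO OPCs. This separation had a narrow margin and the direction of Slit1. Of the 9 tested, 2 were higher (6.27% of all genes). Sums of general neuron markers overlapped (225 to 275 CPM in ctl and 262 to 332 in dKO). Those of glutamatergic markers (80.1 to 85.1 and 76.7 to 115) and immature neuron markers (553 to 677 and 450 to 574) did too. In neuron libraries, 5 of 12 markers of immature neurons were higher by that rule (4.96% of all genes), with 2434 to 3787 CPM in ctl and 3819 to 5048 in dKO. For cycling cells 8 of 12 markers were higher (4.96% of all genes), with 436 to 768 and 782 to 882 CPM. Endothelial markers were lower for 3 of 12 (4.04% of all genes), with 15890 to 18443 and 7941 to 14625 CPM. The markers of GABAergic neurons summed to 204 to 346 CPM in ctl and 349 to 475 in dKO, with 1 of 12 higher and 1 lower (4.96% and 4.04% of all genes). The summed levels of these 4 lists did not overlap between the groups in neuron libraries, nor did the counts of Slit1, Slit2 and Robo1. The margin was narrow for the immature neuron, cycling and GABAergic lists, and the endothelial list went in the opposite direction. Of the markers of choroid plexus and ependymal cells, 7 of 11 tested were higher and 1 lower in dKO neuron libraries (4.96% and 4.04% of all genes). Their median log2 fold change was 0.90, with summed levels of 5125 to 9708 CPM in ctl and 8991 to 31475 in dKO. No marker of these lists was at 0 in all libraries of its cell type, and their part in the values of the members was not tested.

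The neuron table gives estimated counts for each RefSeq transcript. Slit1 had 5 transcripts, led by XM_030250830 with 39.6% of its counts over the 6 libraries and NM_015748 with 38.7%. XM_030250830 had 52.6, 2.19 and 0 estimated counts in ctl libraries and 371, 126 and 0 in dKO libraries, while NM_015748 had 7.73, 134 and 66.8 in ctl and 14.5, 224 and 92.4 in dKO. In dKO replicate 3, XM_030250829 held 125 of the counts, a transcript that had under 1 count in every other library. XM_036161496, by contrast, had 49.9, 47.8 and 48.2 counts in ctl and 0, 0 and 19.2 in dKO. The gene sum therefore separated the groups, while the transcript that carried the dKO counts was another one in each library, and how the program shares reads between overlapping transcripts is not given in the sources used here.

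Robo1 rested on one transcript. NM_019413, whose start is the Robo1 start printed above, held 78.7% of its counts, with 37.2, 57.0 and 37.9 in ctl and 88.3, 80.0 and 115 in dKO. These groups did not overlap either. Slit2 was led by NM_178804 (76.8%), with 110, 250 and 0 in ctl and 249, 339 and 283 in dKO, so that one ctl library had none of it. In these counts, which are not scaled for depth, ctl replicate 2 and dKO replicate 1 were nearly equal. Srgap3 was led by NM_080448 (55.1%), with 233, 194 and 51.1 in ctl and 11.1, 321 and 78.6 in dKO. In dKO replicate 1, the highest library for the gene, 302 counts were on XM_006506145, and with NM_ transcripts alone the log2 fold change of Srgap3 was -0.27. Robo2 was spread over 17 transcripts, the leading NM_001358494 holding 36.4%, and Slit3 had 1 transcript. Srgap2 had 86.6% on NM_001081011, and Srgap1 had 65.5% on the predicted XM_036155558.

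**Figure D4:**
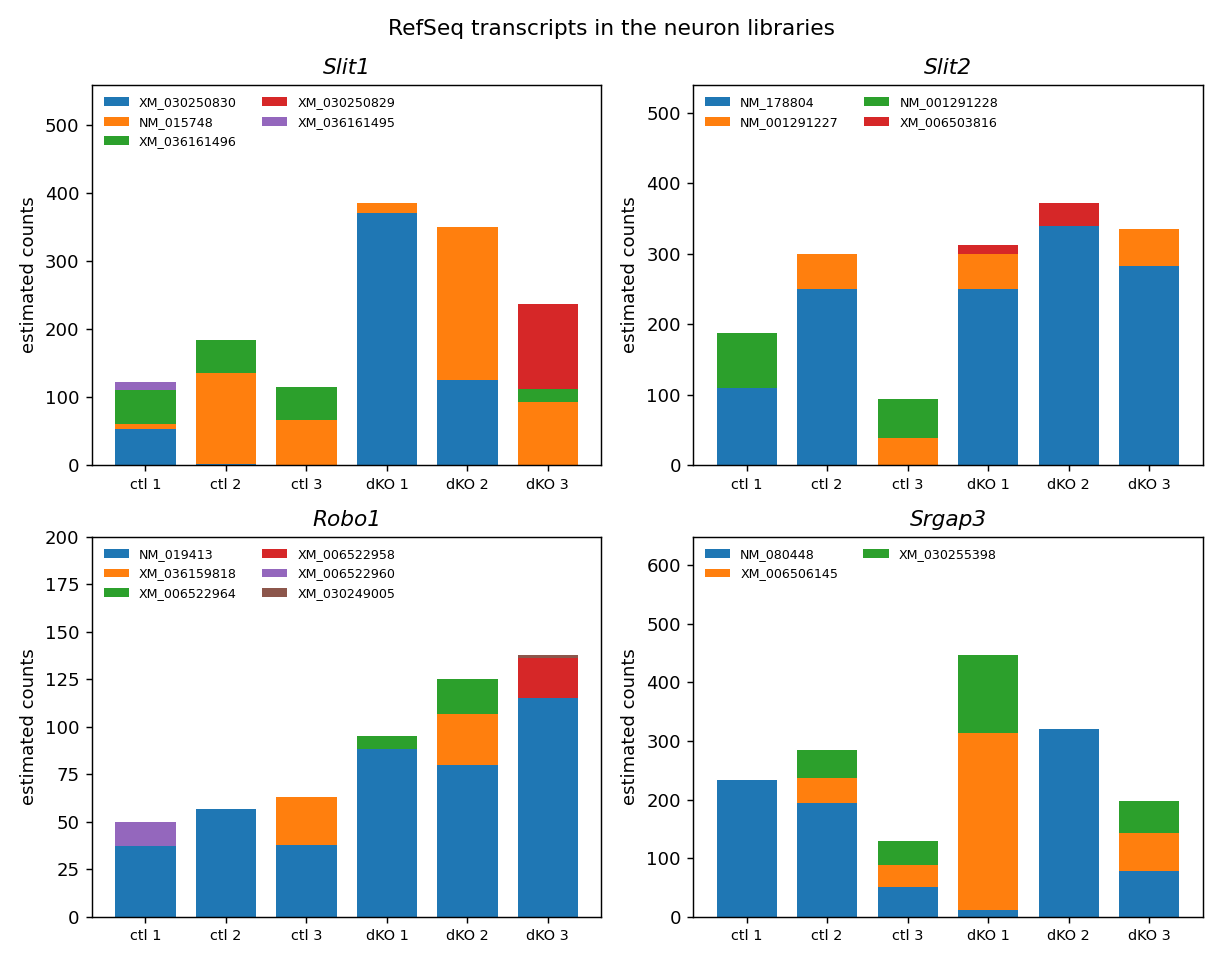
Estimated counts of the RefSeq transcripts of Slit1, Slit2, Robo1 and Srgap3 in the 6 neuron libraries, stacked by transcript (colours, with a scale of their own in each panel). Robo1 rests on NM_019413 in every library, while the leading transcript of Slit1 changes between libraries.

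Other genes of the pathway were read from the same fits, in 4 lists with 105 genes in all. In OPCs the fit covered 103 of them, and at an unadjusted p under 0.05 the dKO libraries were higher for 12 and lower for 7, beside 6.27% and 5.27% of all genes tested. In neurons it also covered 103, with 13 higher and 3 lower, beside 4.96% and 4.04% of all genes. An adjusted p under 0.05 was found for 0 genes in either cell type by edgeR's quasi-likelihood test. The lists were chosen with earlier results of these data known.

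Among other ligands and co-receptors of Slit and Robo, 4 of 22 were higher and 1 lower in OPCs (6.27% and 5.27% of all genes), and the list had a median of 0.20 on the log2 scale. The smallest p belonged to Sdc3, a heparan sulphate proteoglycan of the syndecan family whose members bind Slit, with 1367 ± 278 normalized counts in ctl and 2441 ± 571 in dKO (SD, n = 3; log2 fold change 0.84 ± 0.20 SE, adjusted p = 0.284), and to Bmp1, a secreted metalloproteinase, with 1669 ± 187 and 1240 ± 60.5 (-0.43 ± 0.11, adjusted p = 0.292). In neurons 3 of 22 were higher and 0 lower (4.96% and 4.04% of all genes), with a median of 0.15. Nell2, a secreted ligand of Robo3, had 400 ± 49.2 normalized counts in ctl and 686 ± 33.5 in dKO (log2 fold change 0.78 ± 0.15, adjusted p = 0.521). Flrt3, a membrane protein that binds Robo1, had 262 ± 56.9 and 481 ± 111 (0.87 ± 0.24, adjusted p = 0.521).

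Of 26 cytoplasmic partners of Robo, 2 were higher and 3 lower in OPCs, where 6.27% and 5.27% of all genes were. In neurons 2 were higher and 1 lower, where 4.96% and 4.04% of all genes were. The medians were -0.02 and 0.03. Cables1, an adaptor that links Robo to Abl and N-cadherin, had 150 ± 20.1 normalized counts in ctl OPCs and 344 ± 35.6 in dKO OPCs (log2 fold change 1.19 ± 0.16 SE, adjusted p = 0.128), the smallest p of the 4 lists there. The kinase Abl1 had 4681 ± 694 and 3623 ± 234 (-0.37 ± 0.14, adjusted p = 0.374). In neurons the smallest p-values were those of Myo9b, a myosin that Robo1 binds, and of the kinase Pak3, both higher in dKO, with log2 fold changes of 0.47 ± 0.18 and 0.57 ± 0.23 and adjusted p-values of 0.521 and 0.524.

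Of 22 actin partners and relatives of srGAP, 3 were higher and 1 lower in both cell types, beside 6.27% and 5.27% of all genes in OPCs and 4.96% and 4.04% in neurons. Cyfip1, a subunit of the WAVE regulatory complex, had 1665 ± 91.2 normalized counts in ctl OPCs and 1974 ± 76.2 in dKO OPCs (adjusted p = 0.408), and Fnbp1, an F-BAR protein, had 18375 ± 3084 and 13554 ± 1870 (adjusted p = 0.412). In neurons Wasf1, the WAVE1 gene, had 203 ± 32.3 in ctl and 356 ± 109 in dKO (adjusted p = 0.521). Arhgap4, the relative of the srGAPs that is abundant in blood cells, had 108 ± 48.2 and 46.6 ± 6.54 (adjusted p = 0.521). The medians of this list were 0.08 in OPCs and -0.11 in neurons.

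Of 35 other guidance ligands and receptors, 33 were tested in each cell type. In OPCs 3 were higher and 2 lower (6.27% and 5.27% of all genes), led by the ephrin Efnb1, with 182 ± 40.8 normalized counts in ctl and 322 ± 71.1 in dKO (adjusted p = 0.296), and the netrin-G protein Ntng2, with 312 ± 20.9 and 223 ± 27.9 (adjusted p = 0.318). In neurons 5 were higher and 1 lower (4.96% and 4.04% of all genes), led by the ephrin receptor Epha5, with 50.0 ± 10.8 and 127 ± 15.7 (log2 fold change 1.34 ± 0.32 SE, adjusted p = 0.521), and the Wnt receptor Ryk, with 437 ± 131 and 722 ± 39.7 (adjusted p = 0.521). The list medians were 0.11 in OPCs and 0.32 in neurons.

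The genes most like Slit1 over the 6 libraries of a cell type were found by the root mean square difference of their centred log2 CPM from that of Slit1. In OPCs, of 14796 genes compared, they were Dpysl3, a collapsin response mediator, with a difference of 0.087 and 276 ± 38.0 normalized counts in ctl and 436 ± 34.3 in dKO, the synaptotagmin Syt4 (0.089; 41.1 ± 4.64 and 69.4 ± 2.27) and the zinc finger gene Sall3 (0.089; 94.9 ± 14.8 and 169 ± 20.7). In neurons, of 13961 genes, they were Gstm6, a glutathione transferase (0.15; 15.2 ± 5.72 and 39.1 ± 13.7), the potassium channel gene Kcnc1 (0.16; 78.2 ± 29.0 and 163 ± 55.5) and Dact1, a regulator of Wnt signalling (0.17; 252 ± 85.3 and 460 ± 48.2). Among the members, the nearest to Slit1 was Robo1 in OPCs, in place 263 with a difference of 0.22, and Srgap3 in neurons, in place 596 with 0.38, just before Slit2 in place 608. These values describe likeness over 6 libraries of 2 groups, and any gene that separates the groups by a like amount on this scale would rank high. In OPCs Slit1 had 0.851 to 2.52 CPM, where adding 1 makes its change smaller than its log2 fold change. Genes of higher level near it there therefore changed by less than Slit1.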

How the data were processed

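Members and gene lists were chosen with earlier results of these data known. The OPC table that the authors deposited holds unnormalized read counts for Ensembl genes (HISAT2 and featureCounts per their methods) beside FPKM values. For neurons the authors deposited estimated counts, from a program not given in the sources used here, and TPM values per RefSeq transcript. Both tables also hold the authors' own fold changes and p-values, which were not used. The labels name the build mm39 and the methods GRCm38.

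Neuron values were summed per gene and rounded, and 17794 of 17918 gene identifiers matched a symbol. OPC FPKM values were rescaled to the total that the neuron TPM values have in each library, to give TPM. In each cell type, genes whose TMM-normalized counts averaged 10 or more entered edgeR's quasi-likelihood test of genotype (edgeR 4.0.16 in R 4.3.3), with no other term. P-values were adjusted over all genes tested (Benjamini-Hochberg, 0.05). SEs are the log2 fold change over the square root of F. The threshold counts leave out Slit1, chosen from both contrasts, although the plan for OPCs had counted it. DESeq2 1.42.0, other normalization and filters, a microglia covariate, a replicate block, curated transcripts and each library left out were alternatives. The fits were tested on simulated data with 200 changed genes. With 3 libraries against 3, an exact permutation test cannot give a p under 0.1, so none was run, and the labels do not say whether libraries were prepared together. No library was a copy of another of its own group (chi-square per gene between replicates of 15.9 or more).

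Named genes were the members, Cacna1c and Cacna1d, up to 2 genes with the smallest p per pathway list and cell type, and the 3 genes most like Slit1 in each, leaving out symbols that start with Gm or end with Rik. Promoter sequences came from RefSeq (GRCm38.p6) and transcript starts from GENCODE M21.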

Additional observations from a re-analysis of the deposited data

Results flagged for a closer look

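Among the 8 members and 16 named pathway genes tested in both cell types, 2 partners of Robo had every dKO library lower than every ctl library in OPCs and higher in neurons. Over all genes tested, groups stood apart for 9.55% in OPCs (lower) and, separately, for 7.5% in neurons (higher). Both genes were named for the smallest p-values of their list in neurons, so standing apart there is no finding and the 2 genes are not read against these shares. Myo9b had a log2 fold change of -0.21 ± 0.11 (SE) in OPCs and 0.47 ± 0.18 in neurons. For Pak3 the log2 fold changes were -0.54 ± 0.20 and 0.57 ± 0.23. The difference between the cell types was not tested, since their tables were made differently. Groups of 3 libraries are too small for the search for single outlying libraries, so none was made.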

How the results depend on the processing

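Over the alternatives, 76 of 84 log2 fold changes of the members other than Slit1 kept their direction in OPCs and 87 of 91 in neurons, and 0 of these members passed the adjusted threshold in any of them. The cause of the changes below was not tested. In OPCs the microglia covariate gave log2 fold changes of -0.30 for Slit2, -0.54 for Srgap2 and 0.032 for Srgap3, and moved Robo2 from 0.51 to 0.88, Slit3 from 0.29 to 0.14 and Srgap1 from -0.32 to -0.02. The summed microglia markers did not overlap between the groups in OPCs, so the covariate and genotype cannot be told apart there. With each OPC library left out, Slit2 ranged from -0.20 to 0.49 (-0.19 without ctl replicate 2), Srgap2 from -0.20 to 0.24 (-0.019 without ctl replicate 2) and Srgap3 from -0.21 to 0.036, the positive value without dKO replicate 1. With each neuron library left out, Slit3 ranged from -0.26 to 0.54 (-0.012 without dKO replicate 3) and Srgap2 from -0.35 to 0.048, the positive value without dKO replicate 1. With NM_ transcripts alone, Srgap3 was at -0.27 and Slit1 at 0.61 in neurons. Genes past the adjusted threshold in OPCs numbered 1, against 293 with DESeq2, 87 with no filter, 27 with the replicate block, 13 with the microglia covariate and 1 to 199 with a library left out. In neurons they numbered 0, against 88 with DESeq2. Genes at an unadjusted p under 0.05 numbered 1106 to 2292 in OPCs and 780 to 1581 in neurons with a library left out, and 672 in neurons with the microglia covariate. Members at an unadjusted p under 0.05 in OPCs were 0 with DESeq2 (11.9% of all genes tested) and with no filter (9.15%), 2 with the covariate (Robo2 and Srgap2, beside 10.7%) and 0 to 1 with a library left out (6.34% to 13.3%). In neurons they were 2, Robo1 and Slit2, with DESeq2 (10.7%), with no filter (8.27%) and with the replicate block (8.95%), and 0 to 2 with a library left out (5.45% to 11.03%). The replicate numbers did not pair the libraries: deviations of same-numbered libraries correlated at -0.15 to 0.19 in OPCs and -0.05 to 0.17 in neurons, and 1 of 3 dKO libraries correlated best with its own number in each cell type. Low counts limit Robo3 in both cell types, Slit1 in OPCs and Slit3 in neurons.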
